A study of Mus musculus with 6 samples.

Results

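Laminin chains and nidogens are building blocks of the basement membrane, the thin protein sheet that surrounds muscle cells and underlies epithelia and endothelia. The set described here holds 9 genes chosen by name, the laminin alpha chains Lama2, Lama3, Lama4 and Lama5, the beta chains Lamb1 and Lamb2, the gamma chain Lamc1, and the nidogens Nid1 and Nid2, out of 25683 genes in the deposited table. All 9 were among the 12660 genes with enough reads to be tested. In Nt5e knock-out cells Lama2 was 309-fold and Nid1 5.78-fold higher than in wild-type cells, and the other 7 genes did not pass the test.

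RNA was measured in 6 libraries of mouse aortic cells that the labels call vascular smooth muscle cells, the contractile layer of arteries. Libraries 1 to 3 came from Nt5e knock-out cells, and libraries 4 to 6 from wild-type cells, which makes 3 for each genotype. Nt5e encodes CD73, the surface enzyme that makes adenosine from AMP. Both genotypes are described as a primary line grown in 10% serum and then kept for 48 h in 0.5% serum, a condition the labels call differentiation medium, and each library started with 1 ug of total RNA and a stranded poly(A) kit. The labels give no strain, age, sex or knock-out allele, and do not tell whether the libraries of a genotype are separate animals or cultures. The p-values therefore cover only the spread among these samples, which may be technical.

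Each laminin is a heterotrimer of an alpha, a beta and a gamma chain. The chains are joined inside the cell, the alpha chain carries the main binding sites for integrins and dystroglycan, and the trimers polymerise on the cell surface. Nidogens bind the gamma chain of laminin and link it to type IV collagen and perlecan. In arteries these proteins form the sheet around each smooth muscle cell and beneath the endothelium.

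Depth ran from 19919095 to 23669252 exon reads per library. Nt5e had 22, 1 and 2 exon reads in knock-out libraries 1, 2 and 3, against 615, 688 and 486 in wild-type libraries 4, 5 and 6, in the direction of the labels. The libraries were unevenly spaced. The biological coefficient of variation between a pair of libraries, the spread beyond counting error, was 3.66% for the pair of knock-out libraries 2 and 3. For the pair of wild-type libraries 4 and 6 it was 3.49%. The members of each pair carry different names in their titles. It was 44.6% and 45.1% between knock-out library 1 and the other two of its genotype. Wild-type library 5 differed from the other two of its own by 14.97% and 15.73%. Levels are given in CPM, reads scaled to a common library size. Smooth muscle markers ranged widely in level. Smtn had 82.2, 108 and 104 CPM and Tagln 16.9, 24.0 and 23.3 CPM in knock-out libraries, against 63.8, 63.6 and 74.4 CPM for Smtn and 16.9, 14.9 and 19.2 CPM for Tagln in wild-type libraries. Myh11, the smooth muscle myosin heavy chain, had 5, 54 and 67 reads in knock-out libraries, against 3, 3 and 1 in wild-type libraries, and Des, the muscle intermediate filament protein desmin, had 3, 0 and 1 in the knock-out, against 0, 2 and 0 in the wild type. Acta2, smooth muscle actin, had 73.8, 546 and 525 CPM in the knock-out against 69.2, 51.9 and 101 CPM in the wild type. Cnn1 went the other way, with 14, 5 and 5 reads in knock-out libraries, against 38, 32 and 69 in wild-type libraries. It passed as lower (log2 fold change -2.45, edgeR adjusted p = 0.0246), a call that ended with library 2, 3, 4 or 6 left out.

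Across all genes 27.8% passed the test in either direction, 14.1% higher and 13.7% lower in the knock-out. Of the 9 laminin and nidogen genes, 2 passed, which is 22.2% and thus near that background. None of the 9 fell by edgeR's test, where 1 of them, Lama4, was lower with an unadjusted p under 0.05; DESeq2 called 1 lower and limma-voom 0. The median log2 fold change was 0.023 in the set and 0.018 over all tested genes. In alternatives, 6 of the 9 passed without knock-out library 1 (66.2% of all genes). In the 4 libraries whose titles end in 2, 8 passed (73.0%). Those 4 are the nearly identical pairs, knock-out libraries 2 and 3 and wild-type libraries 4 and 6. Calls among them rest on the small spread within each pair, which may be technical. With each nearly identical pair summed 0 passed (0.130%), with DESeq2 3 (36.8%) and with limma-voom 1 (28.2%). With the last number of the titles as a covariate 4 passed (35.6%). Of the 9, 2 still passed without any single library other than knock-out library 1, while the share of all genes fell below 27.8%. That share was lowest without wild-type library 4, at 8.71%. The genotypes did not overlap for 3 of the 9 (Lama2, Lama4 and Nid1), while 49.7% of all tested genes had no overlap.

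**Figure D1:**
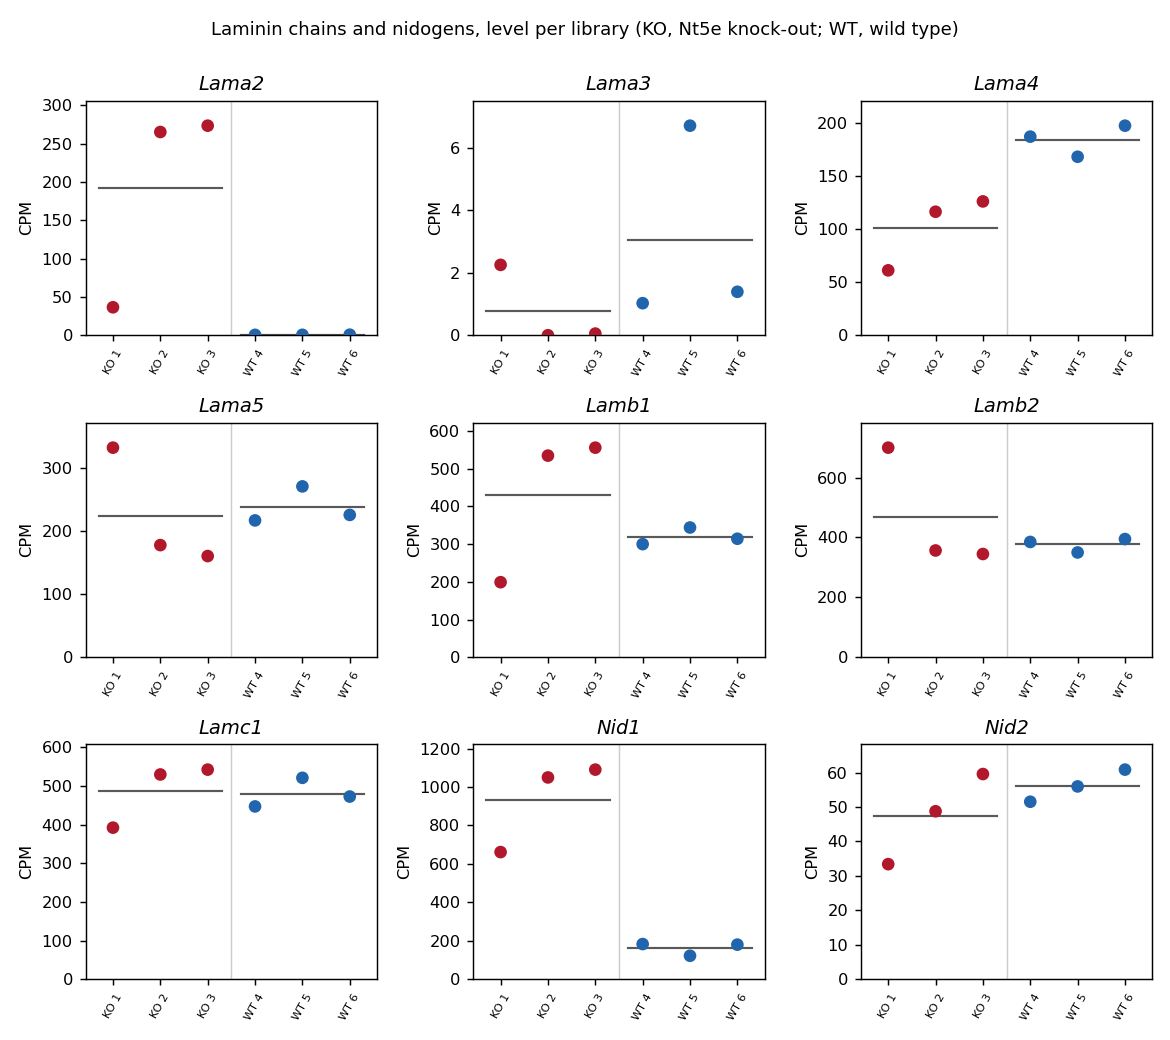
Level of each laminin and nidogen gene in each library in CPM, with Nt5e knock-out libraries in red, wild-type libraries in blue and a horizontal line at each genotype's mean; every axis starts at 0. Lama2 and Nid1 lie higher in all 3 knock-out libraries, Lama4 lies lower in all 3, and knock-out library 1 sits away from libraries 2 and 3 in most panels.

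Lama2 encodes the alpha chain of the laminin that surrounds skeletal muscle fibres and Schwann cells, and its loss causes a congenital muscular dystrophy. The gene (ENSMUSG00000019899) spans 26980036 to 27619758 on the minus strand of chromosome 10 in GRCm38, with 69 exons in the authors' annotation. It had 844, 5628 and 5141 exon reads in knock-out libraries 1, 2 and 3, against 12, 14 and 16 in wild-type libraries 4, 5 and 6. The lowest knock-out library was thus far above the highest wild-type library, and knock-out libraries 2 and 3 lay well above library 1. On the CPM scale the levels were 36.5, 265 and 274 in knock-out libraries, against 0.535, 0.576 and 0.741 in wild-type libraries, with means of 192 ± 134 and 0.617 ± 0.109 CPM (SD, n = 3 each). Knock-out libraries 1, 2 and 3 lay 59.2-fold, 430-fold and 443-fold above the wild-type mean. edgeR's quasi-likelihood test gave a log2 fold change of 8.27 ± 1.00 (SE) with an adjusted p of 0.00424. With knock-out library 1 left out the change was 8.75 (edgeR adjusted p = 2.09e-07), while summing each nearly identical pair into 1 sample gave 7.97, which did not pass (edgeR adjusted p = 0.116). In bulk RNA of this kind, more or fewer cells that express a gene cannot be told apart from more or less RNA per cell.

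Reads that cross exon junctions of Lama2 numbered 646, 4389 and 4172 in knock-out libraries, against 10, 12 and 8 in wild-type libraries, so spliced reads showed the difference too. The unclassified gene model Gm36962 overlaps Lama2 on the same strand and held 0 reads. The median log2 fold change of the tested genes on chromosome 10 was 0.19. The cell types best known for this chain were looked for by their markers. Of 11 skeletal and cardiac muscle markers 1 was tested, Tnnt2, cardiac troponin T, which was higher in the knock-out with a log2 fold change of 6.36 ± 0.79 (SE; edgeR adjusted p = 0.00453). Their summed level was 8.57, 29.2 and 28.4 CPM in knock-out libraries, against 0.535, 0.617 and 0.788 CPM in wild-type libraries, while the defining markers Myod1, Myog, Ckm and Actc1 had 0 reads in all libraries. Schwann cell markers summed to 16.8, 22.5 and 19.2 CPM in knock-out libraries, against 143, 136 and 148 CPM in wild-type libraries, with Sox10 and Foxd3 at 0 reads; of the 4 tested, Mbp fell (log2 fold change -3.26, edgeR adjusted p = 0.00145) and the other 3 did not pass.

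The start of Lama2 is shown because this gene had the largest change of the set. RefSeq (GRCm38.p6) places its start site at 27616942, which is 2816 bases inside the gene start in the authors' table, so the stretch at chr10:27616893-27617192 on the minus strand lies within the tabulated gene. Capitals mark a CArG box, the site named for serum response factor, and a GC box.
Lama2 start: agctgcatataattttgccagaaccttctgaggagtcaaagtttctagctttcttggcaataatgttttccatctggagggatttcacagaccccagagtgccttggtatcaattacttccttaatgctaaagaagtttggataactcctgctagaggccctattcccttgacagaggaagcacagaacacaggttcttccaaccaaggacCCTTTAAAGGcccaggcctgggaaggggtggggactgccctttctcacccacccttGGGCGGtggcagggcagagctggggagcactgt
The sequence holds 50.3% G and C and 1 CG pair, against medians of 52.7% and 7 over 32851 RefSeq mouse promoters of the same length. The motifs searched on both strands were the GC box GGGCGG, found in 35.7% of those promoters, TATAAA in 13.6%, TGACGTCA in 1.79%, TGANTCA in 7.81%, GGAATG in 14.7%, and the CArG box in 1.63%. A match says only that these letters are present.

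Lama4 encodes the alpha chain of vascular laminins, found in the sheet beneath endothelium and around vessel wall cells. The gene (ENSMUSG00000019846) spans 38965515 to 39110188 on the plus strand of chromosome 10, with 38 exons. Its level was 61.0, 116 and 126 CPM in the knock-out libraries, against 187, 168 and 197 CPM in the wild-type libraries. All 3 knock-out libraries lay below all 3 wild-type libraries, with library 1 lowest. The means were 101 ± 34.9 CPM and 184 ± 14.8 CPM (SD, n = 3 each), and the log2 fold change of -0.86 ± 0.27 (SE) did not pass edgeR's test (adjusted p = 0.0632). It passed in 7 of 18 alternatives, among them DESeq2 (adjusted p = 0.00889) and edgeR without knock-out library 1, where the log2 fold change was -0.61 (adjusted p = 6.70e-04).

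Lama5 encodes the most widely distributed alpha chain, present in epithelial and vascular basement membranes. The gene (ENSMUSG00000015647) spans 180176373 to 180225859 on the minus strand of chromosome 2, with 79 exons. Its level was 333, 178 and 161 CPM in the knock-out libraries, against 217, 271 and 226 CPM in the wild-type libraries. Knock-out library 1 was the highest of the 6 libraries and knock-out libraries 2 and 3 were the lowest, so the genotypes overlapped. The log2 fold change was -0.09 ± 0.29 (SE), edgeR adjusted p = 0.839. Without knock-out library 1 it was -0.50 and passed (edgeR adjusted p = 0.00637), and without knock-out library 3 its sign turned to 0.10.

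Lama3 encodes the alpha chain of the laminin that anchors epidermis to dermis. The gene (ENSMUSG00000024421) spans 12333819 to 12583013 on the plus strand of chromosome 18, with 76 exons. It had 52, 0 and 1 exon reads in knock-out libraries, against 23, 163 and 30 in wild-type libraries. Knock-out library 1 lay inside the wild-type range, and wild-type library 5 stood above the rest. The log2 fold change was -1.95 ± 1.56 (SE), edgeR adjusted p = 0.380. Without knock-out library 1 it was -6.64 (edgeR adjusted p = 0.0105), with only 1 read left in the knock-out, so the size of that change depends on the prior count. Without wild-type library 5 it was -0.63 (edgeR adjusted p = 0.828). For the library with 0 reads, a count of 0 allows up to 3 reads, or 0.141 CPM. The median log2 ratio of the tested genes on chromosome 18 to the wild type was -0.17 in knock-out library 1 and 0.37 and 0.38 in libraries 2 and 3. Markers of epithelium and mesothelium, a list that includes Msln and Upk3b, summed to 205, 88.9 and 82.9 CPM in knock-out libraries, against 3485, 3413 and 3589 CPM in wild-type libraries. All 12 of those tested fell (median log2 fold change -5.34), and their part in the Lama3 values was not tested.

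To compare chains with each other, levels were divided by exon length and written as CPM per kb of exon. The 4 alpha chains together reached 43.2, 61.2 and 62.1 CPM per kb in knock-out libraries, against 50.1, 52.3 and 52.6 CPM per kb in wild-type libraries, so the totals overlapped. Their make-up differed. Lama2 took 8.40%, 43.0% and 43.7% of the alpha chain total in knock-out libraries 1, 2 and 3, against 0.106%, 0.109% and 0.140% in wild-type libraries 4, 5 and 6. Lama4 took 23.4%, 31.4% and 33.5% in knock-out libraries, against 61.6%, 53.1% and 61.9% in wild-type libraries, a difference of means of -29.4 percentage points. Neither pair of shares overlapped. Each gave p = 0.1 by an exact two-sided permutation test, the smallest p that 3 against 3 allows. The adjusted p of that test was 0.2 over 6 shares. The shares are parts of the same total, so a higher Lama2 share lowers the others, and these are not separate results. Lama5 took 67.7%, 25.6% and 22.7% in knock-out libraries, against 38.1%, 45.6% and 37.7% in wild-type libraries, overlapping (exact permutation p = 1). Lama5 was thus the leading alpha chain in knock-out library 1, Lama2 in knock-out libraries 2 and 3, and Lama4 in the 3 wild-type libraries. The ratio of Lama2 to Lama4 per length was 0.359, 1.37 and 1.30 in knock-out libraries, against 0.00172, 0.00206 and 0.00226 in wild-type libraries. The ratio of Lama5 to Lama4, which leaves Lama2 out, overlapped. It was 2.90, 0.814 and 0.678 in knock-out libraries, against 0.618, 0.858 and 0.609 in wild-type libraries. The share of Lama3 did not exceed 1.19% in any library.

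**Figure D2:**
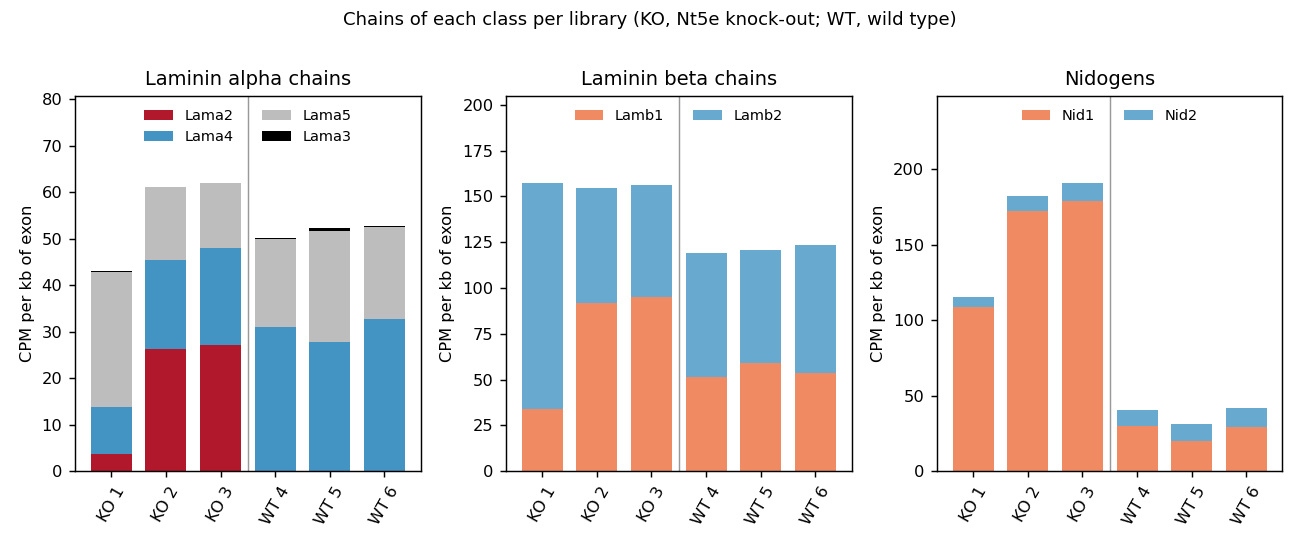
Stacked bars of the CPM per kb of exon of the alpha chains, the beta chains and the nidogens in each library, with knock-out libraries left of wild-type libraries. The beta chain total is 157, 154 and 156 in the knock-out libraries and 119, 121 and 123 in the wild-type libraries, with Lamb2 the larger part in knock-out library 1 and Lamb1 the larger part in knock-out libraries 2 and 3.

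Lamb1 and Lamb2 encode alternative beta chains, Lamb1 in most tissues and Lamb2 chiefly in synaptic, glomerular and vascular smooth muscle basement membranes. Lamb1 (ENSMUSG00000002900, 40 exons) lies at 31265234 to 31329644 on the plus strand of chromosome 12. Lamb2 (ENSMUSG00000052911, 40 exons) lies at 108479736 to 108490530 on the plus strand of chromosome 9, which also holds Nt5e. Lamb1 stood at 199, 535 and 556 CPM in the knock-out libraries, against 300.2, 344 and 314 CPM in the wild-type libraries. Lamb2 stood at 700.0, 357 and 345 CPM in the knock-out libraries, against 385, 349.9 and 395 CPM in the wild-type libraries. Knock-out library 1 had the lowest Lamb1 and the highest Lamb2 of all 6 libraries, while libraries 2 and 3 had the highest Lamb1. Neither gene passed edgeR's test, with log2 fold changes of 0.43 ± 0.38 for Lamb1 (adjusted p = 0.428) and 0.31 ± 0.29 for Lamb2 (SE; adjusted p = 0.453). Without knock-out library 1, Lamb1 rose by 0.76 on the log2 scale (edgeR adjusted p = 1.33e-04), and Lamb2 turned to -0.11 (edgeR adjusted p = 0.168).

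The beta chain total moved less between the knock-out libraries than either chain. It was 157, 154 and 156 CPM per kb in the knock-out, with a mean of 156 ± 1.53, and 119, 121 and 123 CPM per kb in the wild type, with a mean of 121 ± 2.11 (SD, n = 3 each). The knock-out totals lay above the wild-type totals. Lamb2 made up 78.4%, 40.7% and 39.0% of the total in knock-out libraries, against 56.9%, 51.2% and 56.4% in wild-type libraries, with no difference between the means that the exact permutation test could resolve (52.7% ± 22.3 and 54.8% ± 3.19, SD, n = 3 each; p = 1). The ratio of Lamb2 to Lamb1 per length was 3.62, 0.687 and 0.639 in knock-out libraries, against 1.32, 1.05 and 1.29 in wild-type libraries.

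The promoters of the beta chain pair are shown because the genes varied in opposite directions between the knock-out libraries, and they differ in base composition. Both run on the plus strand in GRCm38.p6 (RefSeq), from chr12:31265043-31265342 for Lamb1 and chr9:108479612-108479911 for Lamb2, and capitals mark GC boxes, here on the other strand as CCGCCC.
Lamb1 promoter: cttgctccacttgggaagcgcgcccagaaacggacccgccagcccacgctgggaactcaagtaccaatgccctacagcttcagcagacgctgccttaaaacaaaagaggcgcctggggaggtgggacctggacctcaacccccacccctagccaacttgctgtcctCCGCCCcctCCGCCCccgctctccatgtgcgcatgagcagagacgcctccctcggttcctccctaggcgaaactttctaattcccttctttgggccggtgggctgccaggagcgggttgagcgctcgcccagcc
Lamb2 promoter: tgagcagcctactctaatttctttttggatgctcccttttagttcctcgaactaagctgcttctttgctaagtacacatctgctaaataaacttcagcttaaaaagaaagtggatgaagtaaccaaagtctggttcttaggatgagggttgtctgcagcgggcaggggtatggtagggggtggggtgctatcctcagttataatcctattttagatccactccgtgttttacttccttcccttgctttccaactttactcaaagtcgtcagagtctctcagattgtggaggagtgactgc
Lamb1 has 63.7% G and C, 18 CG pairs and 2 GC boxes. Lamb2 has 44.0% G and C, 4 CG pairs and no match to any of the motifs searched.

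Lamc1 encodes the gamma chain shared by most laminins, the usual partner of the alpha and beta chains above. The gene (ENSMUSG00000026478, 33 exons) spans 153218922 to 153332786 on the minus strand of chromosome 1. Its level was 392, 529.8 and 542 CPM in the knock-out libraries, against 447, 521 and 473 CPM in the wild-type libraries. The genotypes overlapped, with knock-out library 1 lowest and knock-out libraries 2 and 3 highest. The means were 488 ± 83.3 and 480.3 ± 37.6 CPM (SD, n = 3 each), with a log2 fold change of 0.023 ± 0.15 (SE; edgeR adjusted p = 0.917). That value lay at 0 within its error, and its sign turned with total-count scaling (-0.079). Per length, the alpha chain total was 0.839, 0.880 and 0.872 times Lamc1 in knock-out libraries, against 0.854, 0.764 and 0.849 times in wild-type libraries. The beta chain total was 3.06, 2.22 and 2.19 times Lamc1 in knock-out libraries, against 2.03, 1.76 and 1.99 times in wild-type libraries. Knock-out library 1 stood apart in the beta ratio and lay within the other libraries in the alpha ratio.

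Nid1 encodes nidogen, the linker between laminin and type IV collagen. The gene (ENSMUSG00000005397, 20 exons) spans 13437551 to 13512269 on the plus strand of chromosome 13, and no other gene of the annotation overlaps it. It had 15282, 22275 and 20499 exon reads in the knock-out libraries, against 4100, 2967 and 3881 in the wild-type libraries. All 3 knock-out libraries lay above all 3 wild-type libraries, with library 1 the lowest of the knock-out. The levels were 661, 1049.9 and 1091 CPM in knock-out libraries, against 183, 122 and 179.8 CPM in wild-type libraries, with means of 934 ± 237 and 162 ± 34.3 CPM (SD, n = 3 each). Against the wild-type mean the knock-out libraries were 4.10-fold, 6.50-fold and 6.75-fold higher. The log2 fold change was 2.53 ± 0.26 (SE) with an edgeR adjusted p of 0.00291. With knock-out library 1 left out it was 2.72 (edgeR adjusted p = 2.94e-05). It was 2.52 with the nearly identical pairs summed, where it did not pass (edgeR adjusted p = 0.0975).

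Nid2 encodes the related nidogen with overlapping binding partners. The gene (ENSMUSG00000021806, 23 exons) spans 19751265 to 19811787 on the plus strand of chromosome 14. It overlaps Rtraf on the opposite strand, which held 7404 reads in the knock-out libraries and 6070 in the wild-type libraries, and the sources used here do not say whether strand was used in counting, so the count of Nid2 is uncertain to that extent. Its level was 33.4, 48.8 and 59.6 CPM in the knock-out libraries, against 51.5, 56.0 and 60.9 CPM in the wild-type libraries. The genotypes overlapped, with knock-out libraries 1 and 2 the lowest of the 6. The log2 fold change was -0.25 ± 0.21 (SE; edgeR adjusted p = 0.412), beside a median of 0.40 for the tested genes on chromosome 14.

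The nidogens together reached 115, 182 and 191 CPM per kb in the knock-out libraries, against 40.4, 31.3 and 41.8 CPM per kb in the wild-type libraries. Nid2 made up 5.82%, 5.38% and 6.27% of that total in knock-out libraries, against 25.7%, 35.98% and 29.3% in wild-type libraries, without overlap (difference of means -24.5 percentage points, exact two-sided permutation p = 0.1, adjusted p = 0.2). Relative to Lamc1, the nidogen total was 2.24, 2.62 and 2.68 in knock-out libraries, against 0.688, 0.458 and 0.673 in wild-type libraries. All 3 knock-out libraries thus held more nidogen RNA than laminin gamma chain RNA per length, and all 3 wild-type libraries held less.

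The Nid1 promoter is shown beside this result because Nid1 was the other gene of the set that passed the test. It is taken from RefSeq at chr13:13437352-13437651 on the plus strand of GRCm38.p6, and capitals mark the letters GGAATG, named for TEAD factors, and a GC box.
Nid1 promoter: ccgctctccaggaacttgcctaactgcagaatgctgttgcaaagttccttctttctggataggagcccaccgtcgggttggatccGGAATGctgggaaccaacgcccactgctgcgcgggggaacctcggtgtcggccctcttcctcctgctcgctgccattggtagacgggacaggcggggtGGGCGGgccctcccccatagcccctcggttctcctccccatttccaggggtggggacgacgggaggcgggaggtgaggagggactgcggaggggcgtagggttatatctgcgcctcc
It holds 64.7% G and C and 20 CG pairs, against 50.3% and 1 in the Lama2 stretch, and of the motifs searched the pair has the GC box in common.

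Ordered by level per length, the knock-out libraries had Nid1 first with 153 ± 38.9 CPM per kb (SD, n = 3), ahead of Lamb2 (82.4 ± 35.6), Lamb1 (73.6 ± 34.3) and Lamc1 (64.0 ± 10.9), each overlapping the next. Apart from these, Lama5 (19.7 ± 8.32), Lama2 (19.0 ± 13.3), Lama4 (16.7 ± 5.78) and Nid2 (9.50 ± 2.64) overlapped as neighbours, and Lama3 was last at 0.0715 ± 0.120. The wild-type libraries had Lamb2 at 66.4 ± 4.15, Lamc1 at 63.0 ± 4.93 and Lamb1 at 54.7 ± 3.85 CPM per kb (SD, n = 3), whose neighbours overlapped. Lama4 (30.4 ± 2.45), Nid1 (26.5 ± 5.63) and Lama5 (20.9 ± 2.55) followed, apart from Lamb1 and again overlapping as neighbours. Nid2 (11.3 ± 0.938), Lama3 (0.283 ± 0.296) and Lama2 (0.0612 ± 0.0108) came last, each apart from the one before it. The knock-out order is of means over unlike libraries. Library 1 had Lamb2 (123) ahead of Nid1 (109), Lamc1 (51.5) and Lamb1 (34.1 CPM per kb), while libraries 2 and 3 had Nid1 first, then Lamb1, Lamc1 and Lamb2. Lama2 likewise lay at 3.62 CPM per kb in knock-out library 1, below Lama4 and Lama5, and at 26.3 and 27.1 in libraries 2 and 3, above both, and it was the lowest gene of the set in all 3 wild-type libraries.

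Intron reads, counted by the authors beside exon reads, gave a further readout of the same libraries. Over all genes with enough intron reads, 12% of 10653 passed, 4.98% higher and 7.03% lower. Of the 8 laminin and nidogen genes tested, 3 passed, 2 higher and 1 lower. Lama2 had 27, 100 and 112 intron reads in knock-out libraries, against 4, 7 and 5 in wild-type libraries, a log2 fold change of 3.84 ± 0.55 (SE; edgeR adjusted p = 0.00327). Nid1 had 75, 195 and 168 in knock-out libraries, against 26, 26 and 33 in wild-type libraries, a log2 fold change of 2.33 ± 0.31 (SE; edgeR adjusted p = 0.00241). The intron change of Nid1 thus lay within a standard error of its exon change, and that of Lama2 was smaller than its exon change. Lama4 had 26, 37 and 41 intron reads in knock-out libraries, against 91, 92 and 128 in wild-type libraries, and here it fell by 1.58 ± 0.22 on the log2 scale (SE; edgeR adjusted p = 0.00291), where its exon reads had not passed. Lama5, Lamb1, Lamb2, Lamc1 and Nid2 did not pass by intron reads (edgeR adjusted p of 0.532, 0.901, 0.173, 0.337 and 0.699), and Lama3 had too few to test. Lama2 held 3.20, 1.78 and 2.18 intron reads per 100 exon reads in knock-out libraries, against 33.3, 50 and 31.25 in wild-type libraries, where both counts were very low. The differences between exon and intron changes were not tested.

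**Figure D3:**
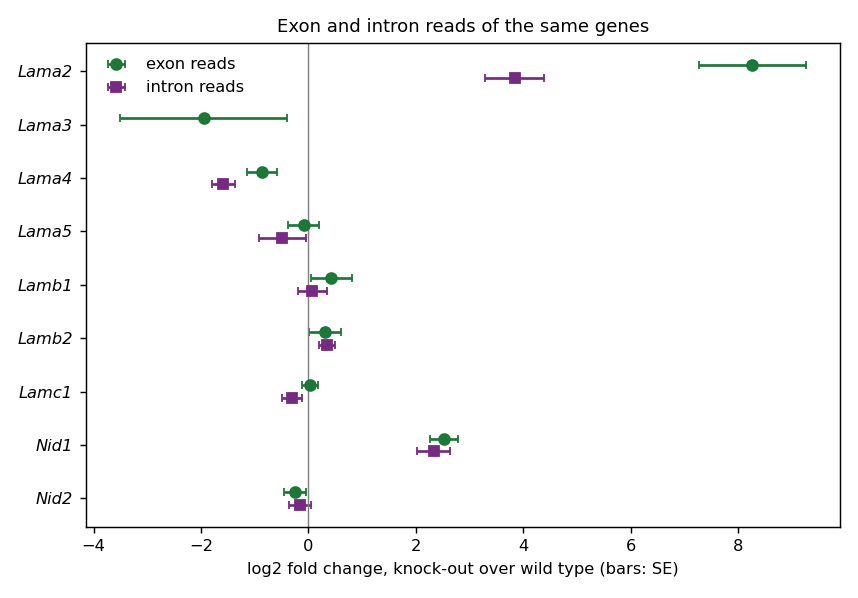
Log2 fold change, knock-out over wild type, from exon reads (green circles) and intron reads (purple squares) of each laminin and nidogen gene, with bars for the standard error. Nid1 is near 2.5 on both scales, Lama2 is at 8.27 by exon reads and 3.84 by intron reads, and Lama4 lies below 0 on both.

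The remaining laminin chains and the related netrins formed a list of 9 genes, of which 7 were tested and 1 rose, or 14.3% against 27.8% of all genes. The median log2 fold change was 0.57. Summing each nearly identical pair into 1 sample left 0 calls in this list and in the basement membrane, receptor and dystrophin complex lists. An unadjusted p under 0.05 (edgeR) then held for 20.2% of all genes. In these lists it held for 1 of 7, 7 of 28, 8 of 19 and 8 of 12. With all libraries kept apart, none of the 7 laminin and netrin genes fell by edgeR's test. Of them 1 was lower with an unadjusted p under 0.05, while DESeq2 and limma-voom each called 1 lower. The genes given here were picked after their values were seen. Lamb3, the beta chain of the epidermal laminin, had 61, 95 and 81 reads in knock-out libraries, against 2, 7 and 3 in wild-type libraries, with a log2 fold change of 4.41 ± 0.50 (SE; edgeR adjusted p = 0.00360). Lama1, the alpha chain of early embryos, had 181, 1 and 3 reads in knock-out libraries, against 78, 50 and 64 in wild-type libraries. Knock-out library 1 held the most Lama1 reads and libraries 2 and 3 the fewest.

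Other basement membrane components numbered 28 tested genes, of which 6 rose and 3 fell, with a median log2 fold change of 0.26. The share that passed, 32.1%, was near the 27.8% of all genes. Among those that rose, Col15a1, a collagen of the outer basement membrane zone, had 1.86, 113 and 133 CPM in knock-out libraries, against 0.178, 1.77 and 1.02 CPM in wild-type libraries (log2 fold change 6.36 ± 1.64, edgeR adjusted p = 0.0361). P3h2, a prolyl hydroxylase of type IV collagen, had 7.40, 45.2 and 49.3 CPM in knock-out libraries, against 6.33, 6.37 and 7.37 CPM in wild-type libraries (2.34 ± 0.68, edgeR adjusted p = 0.0494). Pxdn, the peroxidase that crosslinks type IV collagen, had 92.2, 229.5 and 244 CPM in knock-out libraries, against 75.8, 78.4 and 75.4 CPM in wild-type libraries (1.30 ± 0.36, edgeR adjusted p = 0.0438). All of these were highest in knock-out libraries 2 and 3, and leaving out any library but knock-out library 1 ended each of these calls, with edgeR adjusted p up to 0.128 for Col15a1, 0.159 for P3h2 and 0.141 for Pxdn. The same omissions lowered the share of all genes that passed, so lost calls were not particular to these genes. The calls of Col15a1, P3h2 and Pxdn also ended with limma-voom, where 28.2% of all genes passed. They ended as well with the number after p in the titles as a covariate.

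Among the basement membrane genes that fell, Fbln1, a fibulin that binds laminin and nidogen, had 6.36, 8.53 and 8.73 CPM in knock-out libraries, against 172, 99.7 and 173 CPM in wild-type libraries (log2 fold change -4.24 ± 0.28, edgeR adjusted p = 8.02e-04). Fras1, of the Fraser complex beneath epithelia, had 3.38, 3.77 and 4.10 CPM in knock-out libraries, against 19.5, 24.1 and 26.8 CPM in wild-type libraries (-2.65 ± 0.17, edgeR adjusted p = 7.44e-04). Col4a3, a minor type IV collagen chain, had 23.2, 12.9 and 12.1 CPM in knock-out libraries, against 62.6, 59.5 and 60.4 CPM in wild-type libraries (-1.92 ± 0.26, edgeR adjusted p = 0.00604). Other partners of nidogen picked after their values were seen did not pass edgeR's test, namely Col4a1 (-0.48, edgeR adjusted p = 0.381), Col4a2 (-0.54, edgeR adjusted p = 0.110) and Hspg2, which encodes perlecan (0.73, edgeR adjusted p = 0.0548). Col4a2 and Hspg2 passed with DESeq2.

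All 19 receptors for laminin or nidogen in the list were tested, and the median log2 fold change was -0.81. Of them 3 rose and 7 fell, which is 52.6% against 27.8% of all genes (14.1% higher and 13.7% lower). The 3 that rose were Cspg4, Sdc2 and Itgb1. Cspg4, the NG2 proteoglycan, had 36.8, 11.8 and 13.2 CPM in knock-out libraries, against 0.357, 0.452 and 0.510 CPM in wild-type libraries (log2 fold change 5.54 ± 0.60, edgeR adjusted p = 0.00316). Sdc2, a syndecan, had 279, 459 and 473 CPM in knock-out libraries, against 133, 110 and 139 CPM in wild-type libraries (1.66 ± 0.23, edgeR adjusted p = 0.00599). Itgb1, the beta subunit of most laminin-binding integrins, had 1156, 1236 and 1204 CPM in knock-out libraries, against 716, 785 and 748 CPM in wild-type libraries (0.68 ± 0.08, edgeR adjusted p = 0.00430). Cspg4 was highest in knock-out library 1, and Sdc2 in libraries 2 and 3.

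The receptors that fell most were Ptprf, Itga7 and Itga6. Ptprf, the receptor phosphatase LAR, had 12.1, 2.69 and 3.62 CPM in knock-out libraries, against 219, 206 and 226 CPM in wild-type libraries (log2 fold change -5.14 ± 0.62, edgeR adjusted p = 0.00430). Itga7, the integrin alpha chain of muscle, had 17.4, 1.37 and 1.86 CPM in knock-out libraries, against 154, 198 and 138 CPM in wild-type libraries (-4.56 ± 1.03, edgeR adjusted p = 0.0246). Itga6, its counterpart in epithelia, had 1.69, 4.10 and 4.52 CPM in knock-out libraries, against 39.1, 37.4 and 38.1 CPM in wild-type libraries (-3.48 ± 0.36, edgeR adjusted p = 0.00296). The call of Itga7 ended when any library but knock-out library 1 was left out (edgeR adjusted p as high as 0.0793), omissions that also lowered the share of all genes that passed. Itgb4, which pairs with Itga6 in epithelia and is given after its values were seen, was at -3.34 ± 0.97 (edgeR adjusted p = 0.0499), and its call ended under the same omissions (as high as 0.127). Dag1, dystroglycan, likewise given after its values were seen, had 729, 540 and 544 CPM in knock-out libraries, against 506, 542 and 529 CPM in wild-type libraries, and did not pass (0.20 ± 0.14, edgeR adjusted p = 0.312). The fall of the receptors went beside the fall of all 12 tested epithelium and mesothelium markers given above, whose part in it was not tested.

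**Figure D4:**
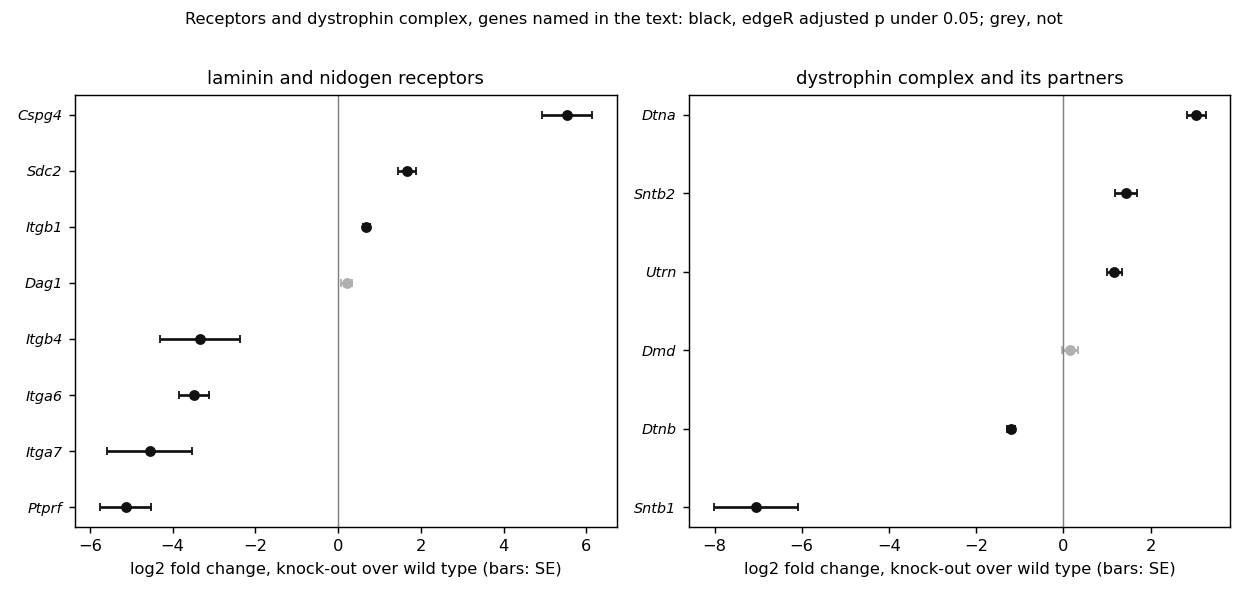
Log2 fold change, knock-out over wild type, of the receptors (left) and the dystrophin complex genes (right) named in the text, with bars for the standard error, in black where edgeR's adjusted p was under 0.05 and in grey where it was not. Cspg4 is highest at 5.54 and Ptprf lowest at -5.14 among these receptors, Dtna is highest at 3.05 among these complex genes, and Dag1 and Dmd are grey.

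The dystrophin complex and its partners couple laminin bound to dystroglycan with the cytoskeleton, and of its 12 tested genes 7 rose and 3 fell, with a median log2 fold change of 0.67. That is 83.3%, against 27.8% of all genes (14.1% higher and 13.7% lower). Dtna, a dystrobrevin, had 6.36, 8.58 and 7.71 CPM in knock-out libraries, against 1.03, 0.822 and 0.880 CPM in wild-type libraries (3.05 ± 0.22, edgeR adjusted p = 0.00103). Sntb2, a syntrophin, had 294, 545 and 564 CPM in knock-out libraries, against 172, 166 and 181 CPM in wild-type libraries (1.44 ± 0.25, edgeR adjusted p = 0.0122). Utrn, the dystrophin relative utrophin, had 281, 407 and 417 CPM in knock-out libraries, against 154, 161 and 176 CPM in wild-type libraries (1.17 ± 0.17, edgeR adjusted p = 0.00682). Leaving out wild-type library 4, 5 or 6 ended the call of Sntb2 (edgeR adjusted p as high as 0.0638), and also lowered the share of all genes that passed. Dmd itself, given after its values were seen, did not pass (0.16 ± 0.18, edgeR adjusted p = 0.537).

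Among the genes of this complex that fell, Dtnb, the other dystrobrevin, had 16.1, 15.7 and 16.2 CPM in knock-out libraries, against 35.2, 35.7 and 39.5 CPM in wild-type libraries (log2 fold change -1.20 ± 0.08, edgeR adjusted p = 8.55e-04). Sntb1, a syntrophin that also fell and was named after its values were seen, had 1, 0 and 0 reads in knock-out libraries, against 42, 122 and 35 in wild-type libraries. That is a level 184-fold lower in the knock-out, with an exact 95% interval of 32.6-fold to 7295-fold that covers counting error only. The dystrobrevins and the syntrophins thus each had members that rose and members that fell.

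The genes whose level followed Lama2 most closely over the 6 libraries, by Pearson correlation of log2 CPM among 11366 genes, were 2510009E07Rik, Septin7 and Ereg, each at 1.00. Ereg, the growth factor epiregulin, had 9.87, 27.9 and 27.6 CPM in knock-out libraries, against 1.56, 1.64 and 1.71 CPM in wild-type libraries. Septin7, a filament-forming GTPase, had 337, 404 and 409 CPM in knock-out libraries, against 215, 217 and 220.2 CPM in wild-type libraries. Nid1 ranked 228 with a correlation of 0.99, Lamb1 stood at 0.51 and Lama4 at -0.64. These values describe 6 libraries that fall into a low wild-type group, a middle library and a high pair, so a gene with that order scores high.

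Other marker lists moved with the same libraries. Fibroblast markers summed to 5784, 15845 and 17690 CPM in the knock-out libraries, against 6078, 6105 and 6106 CPM in the wild-type libraries, with 2 of 10 tested higher and the rest not called. Pericyte markers summed to 389, 1009 and 1054 CPM in knock-out libraries, against 228, 246 and 233 CPM in wild-type libraries. Of 6 tested, 3 were higher (Cspg4, Pdgfrb and Notch3) and 1 lower (Kcnj8), and Higd1b had 0 reads. Pdgfrb alone had 311, 951 and 995 CPM in knock-out libraries, against 180, 192 and 182 CPM in wild-type libraries. Kcnj8 had 1, 0 and 0 reads in knock-out libraries, against 30, 109 and 51 in wild-type libraries. Rgs5, which did not pass, and Abcc9, which was not tested, also lay lower in all knock-out libraries. Smooth muscle markers summed to 188, 700.3 and 674 CPM in knock-out libraries, against 158, 137 and 208 CPM in wild-type libraries, with 1 of 6 tested higher (Smtn) and 1 lower (Cnn1). Endothelial markers summed to 3.29, 7.16 and 7.55 CPM in knock-out libraries, against 2.59, 3.41 and 1.90 CPM in wild-type libraries. Of 2 tested, 1 was higher (Kdr), and Tie1 and Cldn5 had 0 reads. Kdr alone had 2.03, 6.50 and 5.91 CPM in knock-out libraries, against 0.803, 0.329 and 0.463 CPM in wild-type libraries. Vwf and Erg, which were not tested, had fewer reads in the knock-out, 7 against 44 and 11 against 46. Leukocyte markers summed to 6.36, 16.8 and 13.6 CPM in knock-out libraries, against 7.0, 4.77 and 4.40 CPM in wild-type libraries. Of 3 tested, 1 was higher (Lyz2) and 1 lower (Cd68), and Ptprc, Adgre1 and Itgam had 0 reads. The summed levels of fibroblast, pericyte and smooth muscle markers were, like Lama2 and Nid1, highest in knock-out libraries 2 and 3. Unlike Lama2 and Nid1, the fibroblast sum of knock-out library 1 lay below all wild-type libraries. Single markers such as Cspg4, Notch3, Cd34 and Ly6a were highest in library 1. The fibroblast markers Cd34 and Ly6a lay below all wild-type libraries in knock-out libraries 2 and 3. The part of these marker lists in the laminin and nidogen values was not tested.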

How the data were processed

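RNA was measured by sequencing in 6 libraries, 3 Nt5e knock-out and 3 wild type, grouped by the labels. The deposited table gives whole-number read counts per gene and library, made by the authors, namely exon, unique exon, junction and intron reads, with gene coordinates and exon length. Coordinates are on GRCm38 (mm10), per the submitters' processing notes. Which aligner and counter were used, and whether strand was used, is not given in the sources used here.

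Exon counts of all genes were tested in R 4.3.3 with edgeR 4.0.16 (filterByExpr with a minimum count of 10, TMM scaling, quasi-likelihood F test of genotype with no other term, Benjamini-Hochberg adjustment over 12660 genes at 0.05). Intron counts were tested the same way on their own. CPM are counts scaled to the TMM-adjusted library size; log2 CPM used a prior count of 2. Standard errors were obtained as the absolute log2 fold change over the root of F. Shares of chain totals were compared by exact permutation tests (scipy 1.17.1). Intervals and floors cover counting error only. The alternatives were DESeq2 1.42.0, limma-voom (limma 3.58.1), other scalings and filters, unique reads, leaving out each library, and sums or covariates from the library titles, whose numbers the labels do not explain; for the nearly identical libraries, each pair was also summed. The fits were also run on simulated counts with known changes and the same dispersion for every gene and library. That simulation held no nearly identical pairs and no library far from its group, so it cannot show how these affect the calls.

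The members and lists were chosen with earlier results of these data known. The genes named were the 9 members, Nt5e, the smooth muscle markers, up to 3 rises and 3 falls per list (called, not overlapping, mean of at least 50 reads), up to 4 per marker list, and the 3 genes most like Lama2; other names were chosen after their values were seen, and some genes are not reported here. Promoters are from RefSeq, which had an entry for 5 of the 9 members; that of Lama5 is not shown. Python 3.11.15 and matplotlib 3.10.9 served for the plots.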

Additional observations from a re-analysis of the deposited data

How the results depend on the processing

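Of the 9 genes 2 passed (edgeR), and the count was 1 with limma-voom, 4 with the last number of the titles as a covariate, 8 with only the 4 libraries whose titles end in 2, 0 with the nearly identical pairs summed, and 2 to 6 with each library left out, 6 being without knock-out library 1. The 4 libraries whose titles end in 2 are the same nearly identical pairs, kept apart, so those calls rest on the spread within each pair. Where the count was 0 (edgeR, 2 against 2), 2 of the 9 had an unadjusted p under 0.05. Of all 13041 genes 20.2% had such a p, 17 passed after adjustment, and no other tool was run. Lama2 kept its direction in all alternatives (log2 fold change 7.93 to 8.75 with a library left out, and 7.25 with the title's number after p as a covariate) but missed the threshold with limma-voom (7.79, adjusted p = 0.0931) and summed pairs (7.97). Nid1 (2.36 to 2.72 with a library left out) missed it with summed pairs (2.52). Lama4 was below 0 throughout and passed with total counts (-0.97), DESeq2 (-0.87), summed title stems (-0.82), the title's number after p (-1.12) or last number (-0.93) as a covariate, and titles ending in 2 (-0.68). Signs turned for Lama5 with summed pairs (0.030) or the p number (0.016), and with a library left out it ran from -0.50 to 0.10, above 0 in the absence of knock-out library 2 or 3 or of wild-type library 5. They turned for Lamb2 with titles ending in 2 (-0.16) and with a library left out ran from -0.11, in the absence of knock-out library 1, to 0.49. They turned for Lamc1 with total counts (-0.079), summed pairs (-0.076) or the p number (-0.061), and with a library left out it ran from -0.058 to 0.15. The cause was not tested. The share difference of Lama4 was -24.2 percentage points without length correction. With summed pairs no gene passed in any list other than those of cell type markers. An unadjusted p under 0.05 (edgeR) then held for 20.2% of all genes. It held for 1 of 7 other laminin and netrin chains and 7 of 28 basement membrane genes. For the rest it held for 8 of 19 receptors, 8 of 12 dystrophin complex genes and 3 of 16 matriglycan genes. With titles ending in 2 the counts were 6 of those chains (main count 1), 27 basement membrane genes (9), 16 receptors (10) and 9 matriglycan genes (5). The chains numbered 2 with DESeq2, 2 with limma-voom and 3 with the last number as a covariate. The basement membrane genes numbered 15 with DESeq2 and 6 with limma-voom. With a library left out the counts ran from 1 to 6 chains, 4 to 24 basement membrane genes, 7 to 16 receptors and 1 to 9 matriglycan genes, highest without knock-out library 1, where 66.2% of all genes passed. Leaving out any other library lowered the share of all genes below the main 27.8%. It was 12.5% without knock-out library 2 and 12.8% without knock-out library 3. It was 8.71% without wild-type library 4 and 10.8% without wild-type library 6. The low counts thus came with fewer calls over all genes. The intron counts moved by less than 1.5 times in every alternative run. Lama3 passed with titles ending in 2 (-5.30) and the last number as a covariate (-3.00). No paired analysis was possible because the library numbers differ between genotypes, 1 to 3 and 4 to 6; the title numbers, which both genotypes share and the labels do not explain, were fitted as the covariates above. Depth limits Lama3 and wild-type Lama2, which rest on few reads.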

Other observations

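The enzymes that build matriglycan, the sugar chain by which dystroglycan holds laminin, formed a list of 19 genes, of which 16 were tested, 2 rose and 3 fell, with a median log2 fold change of -0.16 against 0.018 for all genes. The share that passed, 31.25%, was near the 27.8% of all genes. Rxylt1, a xylosyltransferase of the chain's linker, rose (0.51 ± 0.11, edgeR adjusted p = 0.0197). B3galnt2 fell on the log2 scale by 0.34 ± 0.09 (edgeR adjusted p = 0.0341) and Dpm3 by 0.49 ± 0.13 (edgeR adjusted p = 0.0345). The other 11 tested genes did not pass. Leaving out any library but knock-out library 1 ended the calls of Rxylt1, B3galnt2 and Dpm3. The edgeR adjusted p was then as high as 0.0831 for Rxylt1, 0.136 for B3galnt2 and 0.140 for Dpm3. These omissions also lowered the share of all genes that passed.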
